A study of Mus musculus with 8 samples.

Results

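The comparison was between 2 samples of mouse E14TG2a embryonic stem cells from which CRISPR/Cas9 had removed an enhancer (E2-KO) and 2 samples of the unedited line (WT), out of 8 samples in all. The samples were assigned to the groups by their titles, and all genes were compared. The other samples were 2 each of E1-KO and E3-KO, further lines of the same origin with another enhancer lost in each. All 4 groups were of strain 129/Ola, at passages 3-6, feeder-free on gelatin in serum medium with leukaemia inhibitory factor, the GSK3 inhibitor CHIR99021 and the MEK inhibitor PD0325901. The labels give neither the position of the deleted enhancers nor whether a line is 1 clone, and they call the 2 samples of a group biological duplicates. Edited cells with an intact enhancer were not analysed here. Loss of the enhancer therefore cannot be told apart from differences between an edited line and the unedited one. The series was designed around contacts of promoters with enhancers and the function of Sox2.

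SOX2 is a transcription factor that pairs with OCT4 (the product of Pou5f1) on the enhancers of pluripotency genes, and its own gene is driven by distant enhancers. Mouse stem cells can be held in a naive state, close to the early epiblast, or can pass to formative and primed states in which de novo DNA methyltransferases are high. The culture acts on the same choice. LIF works through STAT3, PD0325901 blocks the FGF to ERK pathway, and CHIR99021 stabilises beta-catenin, which switches on WNT target genes.

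Levels are in FPKM, fragments of a transcript scaled to its length and to the mapped total of the library. Between 11080 and 11206 genes reached 1 FPKM in an E2-KO or WT sample. The depth of the 3 samples relative to WT replicate 1 was 0.993 and 0.908 in E2-KO and 0.966 in WT replicate 2, a rough estimate from steps between low values. Absolute depth is unknown. Across genes, which are not independent replicates, log2 levels correlated at 0.985 between the E2-KO samples and 0.994 between the WT samples, and at 0.947 to 0.96 between E2-KO and WT samples.

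Of 11274 tested genes, 4071 differed between E2-KO and WT at an adjusted p under 0.05 (36.1%, limma-trend with Benjamini-Hochberg adjustment). They were 1596 higher in E2-KO (14.2%) and 2475 lower (22%). With a log2 fold change of at least 1 in size, 286 were higher (2.54%) and 367 lower (3.26%). The balance of higher and lower genes moved with the scaling. The split was 1881 higher and 2001 lower after quantile normalization, 2003 and 1968 with median-ratio scaling, 1447 and 2866 with scaling on all but the 50 highest genes, and 2017 and 2032 with a correction for transcript length and GC content. Over the 11274 genes the median change was -0.08 (log2) as deposited and -0.12 with scaling on all but the 50 highest genes. List medians below are to be read against it, and list counts against the 22% of genes that fell and the 14.2% that rose. In 8098 genes (71.8%) the 2 E2-KO samples did not overlap the 2 WT samples. Leaving out WT replicate 1 lowered the count of differing genes to 2188, and leaving out WT replicate 2 lowered it to 1871. Fold changes were taken from log2(FPKM + 1), so those of genes near or below 1 FPKM are understated. In bulk samples, fewer cells of a kind and less RNA per cell cannot be told apart.

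**Figure D1:**
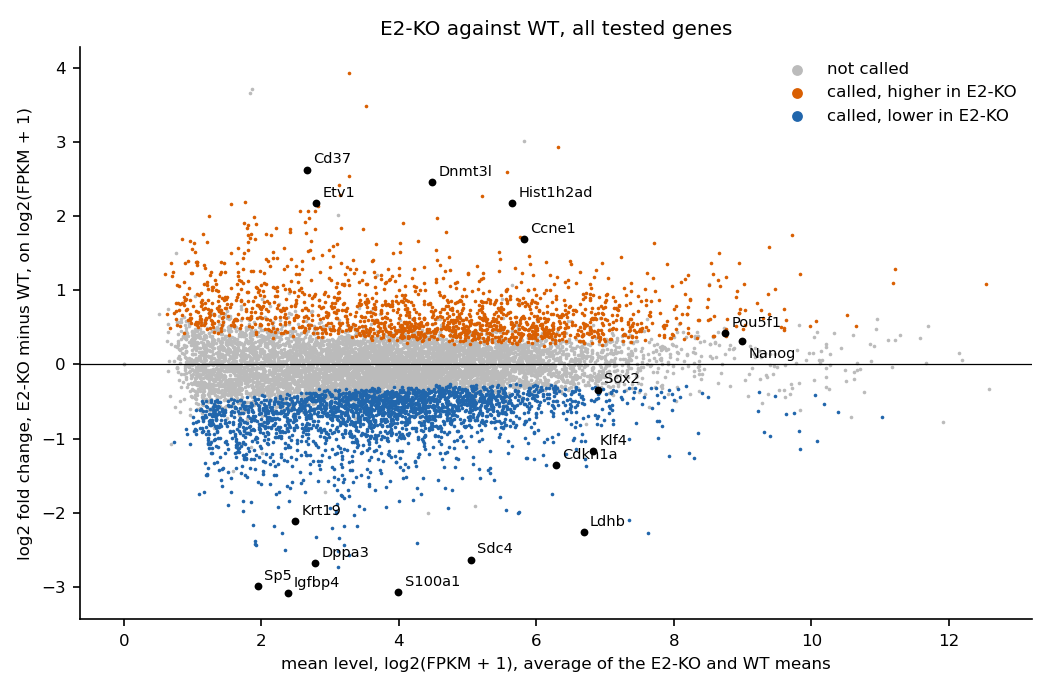
Each point is 1 of 11274 tested genes. The x axis is the mean level in log2(FPKM + 1) and the y axis is the log2 fold change of E2-KO against WT. Orange and blue mark genes called higher and lower at an adjusted p under 0.05 by limma-trend, and black marks genes named in the text, with Nanog and Pou5f1 just above 0 and Sox2 just below it.

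Sox2 was measured at 114 and 97.5 FPKM in the E2-KO samples and at 130.5 and 136 FPKM in the WT samples. Both E2-KO samples were below both WT samples. The log2 fold change was -0.34 (standard error 0.104, limma-trend adjusted p = 0.0314). The call is close to the threshold: the adjusted p from limma-trend was 0.0642 with median-ratio scaling, 0.117 without E2-KO replicate 2, 0.105 without WT replicate 1, 0.172 without WT replicate 2, and 0.0595 and 0.0592 without E1-KO replicate 1 and 2. Against E1-KO, at 58.0 and 60.3 FPKM, Sox2 was higher in E2-KO by 0.82 on the log2 scale (limma-trend adjusted p = 0.0161). Against E3-KO, at 97.7 and 91.0 FPKM, the difference of 0.16 did not pass (limma-trend adjusted p = 0.332).

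Of 17 tested genes around Sox2 on chromosome 3, Sox2 included, 8 fell (22% of all genes did) and 2 rose (14.2%). The median log2 fold change was -0.43. Pik3ca, the catalytic subunit of a PI3-kinase, had 6.71 and 5.48 FPKM in E2-KO and 10.1 and 10.5 FPKM in WT. Its groups did not overlap, and its log2 fold change was -0.67 (limma-trend adjusted p = 0.00479). Ttc14 (-0.62) and Atp11b, a phospholipid flippase (-0.56), were also lower. The rise of Dnajc19, 0.85, rested on 1 of several rows with its identifier, and the sum of those rows gave -0.31. The count of 8 was 5 without E2-KO replicate 2 and 4 without either WT sample, and the count of 2 was 1 without E2-KO replicate 1 and 0 without WT replicate 2.

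Genes were ranked among those called, averaging 5 FPKM or more over the 4 E2-KO and WT samples, with groups that do not overlap. The largest falls were of Igfbp4, S100a1, Sp5, Ablim1, Dppa3, Sdc4, Trpm1, Calb2, Fxyd2 and Aim2, whose log2 fold changes ran from -3.08 to -2.43. Igfbp4, a secreted protein that binds insulin-like growth factors, was at 0.792 and 0.795 FPKM in E2-KO and at 13.5 and 15.0 FPKM in WT. The levels in E2-KO were close to each other and far below both WT samples (-3.08, standard error 0.244, limma-trend adjusted p = 0.0001). S100a1, a calcium-binding protein, was at 3.61 and 5.56 FPKM against 47.2 and 43.4 FPKM. Sdc4, a cell-surface heparan sulfate proteoglycan, was at 10.9 and 13.8 FPKM against 81.0 and 81.9 FPKM. Both genes were far lower in each E2-KO sample than in either WT sample, by -3.07 and -2.63. Aim2, a sensor of DNA in the cytosol, went from 20.3 and 20.6 FPKM in WT to 2.88 and 3.10 FPKM in E2-KO. Ablim1 binds actin, Trpm1 is a cation channel, Calb2 is the calcium-binding protein calretinin and Fxyd2 regulates the sodium-potassium pump. Their log2 fold changes were -2.73, -2.57, -2.51 and -2.51. The next gene by size outside these 10 was Lefty2 (-2.40).

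By the same rule, the largest rises were of Cd37, Myo1f, Dnmt3l, Prrt3, Dpf1, Hist1h2ad, Etv1, Enox1, Eras and Myl9, with log2 fold changes from 2.63 to 2.07. Cd37, a tetraspanin of the cell membrane, was at 17.7 and 12.4 FPKM in E2-KO and at 1.17 and 2.02 FPKM in WT. Myo1f, an unconventional myosin, was at 23.4 and 21.3 FPKM against 3.9 and 2.27 FPKM. In both genes the lower E2-KO sample was well above the higher WT sample. Eras, a Ras-like GTPase of embryonic stem cells, was at 15.5 and 9.41 FPKM against 2.22 and 2.02 FPKM (2.07, limma-trend adjusted p = 0.000248). Dpf1, a subunit of chromatin remodelling complexes, was at 17.5 and 19.9 FPKM against 4.62 and 1.86 FPKM (2.29, limma-trend adjusted p = 0.000476). The WT samples of Dpf1 were far apart but stayed below both E2-KO samples. Prrt3, a proline-rich membrane protein, Enox1, an oxidase of the cell surface, and Myl9, a regulatory light chain of myosin, changed by 2.42, 2.14 and 2.07. The next gene outside these 10 was Nefh (2.06). All 20 genes kept their call in all 20 alternative settings that tested them. They were picked as the largest called changes in these same data, and the rule itself asked for groups without overlap. None of the 20 differed between E2-KO and E1-KO by limma-trend at an adjusted p under 0.05. In E1-KO all 20 were called against WT in the same direction, such as S100a1 (-3.08), Igfbp4 (-1.83) and Etv1 (2.2).

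**Figure D2:**
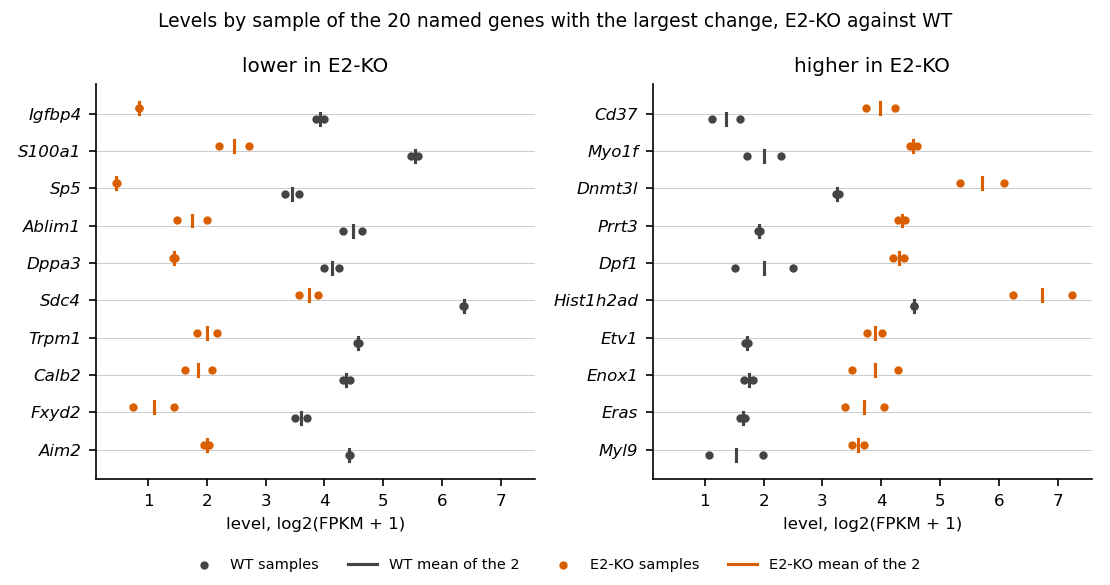
Points are samples and short bars are the means of 2 samples, orange for E2-KO and grey for WT, with the level in log2(FPKM + 1) on the x axis. The 10 genes at the left fell and the 10 at the right rose. The groups are separate in each of the 20 genes because the rule for naming them asked for it.

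Predicted and unnamed genes were ranked apart from the others. The unplaced identifier ENSMUSG00000074562 was at 68.3 and 19.5 FPKM in E2-KO and 1.95 and 1.07 FPKM in WT. Gm10800 was at 69.9 and 19.6 FPKM against 3.21 and 1.78 FPKM. Both were higher in E2-KO by 3.93 and 3.48 on the log2 scale, and for both E2-KO replicate 1 was far above replicate 2. The 2 falling genes of this kind were C130074G19Rik (-1.54) and D230025D16Rik (-1.46). Reads shared with similar sequences make such values uncertain.

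More genes of naive pluripotency fell than rose in E2-KO. Of 25 tested, 11 fell (22% of all genes did) and 3 rose (14.2% of all genes did), with a median log2 fold change of -0.30. Dppa3, which guards maternal methylation marks and is a sensitive naive marker, was at 1.75 and 1.68 FPKM in E2-KO and 15.0 and 18 FPKM in WT. The groups were far apart (-2.68, standard error 0.203, limma-trend adjusted p = 8.94e-05). Klf4, a factor downstream of LIF, was at 68.9 and 81.2 FPKM against 159 and 181 FPKM, without overlap (-1.17, limma-trend adjusted p = 0.000248). Spic (-0.98), the AKT cofactor Tcl1 (-0.93) and Tfcp2l1 (-0.82) fell too. Other members of the list were not called lower. Pou5f1 rose to 553 and 445 FPKM from 360.0 and 382 FPKM (0.42, limma-trend adjusted p = 0.0355), and Zfp42, also known as Rex1, rose by 0.51. Nanog was at 524 and 618 FPKM against 467 and 450.4 FPKM, above WT in both samples, and did not pass (0.31, limma-trend adjusted p = 0.0855). Esrrb (-0.24, limma-trend adjusted p = 0.11) did not pass either. The count of 11 was 7 without WT replicate 2. The count of 3 was 1 without E2-KO replicate 1 or either E1-KO sample, and 0 without either WT sample. It was also 1 with quantile normalization, where 13 fell, and 5 with median-ratio scaling, where 9 fell.

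More genes of the formative and primed states rose than fell. Of 16 tested, 9 rose (14.2% of all genes did) and 1 fell (22%), with a median log2 fold change of 0.58. Dnmt3l, the cofactor of the de novo DNA methyltransferases, was at 67.3 and 39.5 FPKM in E2-KO and 8.38 and 8.69 FPKM in WT. The E2-KO samples were unequal and both far above WT (2.46, standard error 0.217, limma-trend adjusted p = 0.000168). The enzyme gene Dnmt3b was at 44.0 and 37.8 FPKM against 15.3 and 17.4 FPKM (1.27). Etv4, an ETS factor, was at 111 and 116 FPKM against 43.9 and 41.8 FPKM (1.38). Both rises were several times their standard errors of 0.111 and 0.0919. Utf1, a chromatin-associated factor of pluripotent cells, rose by 1.09 and the RNA-binding Lin28a by 1.06. The exception was Otx2, a homeobox factor that drives the exit from the naive state, at 3.53 and 4.26 FPKM against 14.8 and 16.5 FPKM (-1.77, limma-trend adjusted p = 9.57e-05). The count of 9 was 4 without E2-KO replicate 1, 5 without WT replicate 1 and 4 without WT replicate 2. Of the 13 tested genes of DNA methylation and its removal, 6 rose (14.2% of all genes did), among them Dnmt3a, Dnmt3b and Dnmt3l, and 1 fell (22%). The 6 became 4, 2 and 3 under the same omissions. The fall was lost without either E2-KO, WT or E1-KO sample.

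Most tested WNT targets and feedback genes fell. Of 12 tested, 7 fell (22% of all genes did) and none rose (14.2%), with a median log2 fold change of -0.46. Leaving out any 1 sample gave 5 to 7 falls. Sp5, a zinc finger factor that beta-catenin induces directly, was at 0.380 and 0.368 FPKM in E2-KO and 9.07 and 10.8 FPKM in WT. Its levels in E2-KO were under 1 FPKM in both samples (-2.99, standard error 0.162, limma-trend adjusted p = 4.05e-05). Axin2, the feedback scaffold that promotes beta-catenin breakdown, was at 6.14 and 5.42 FPKM against 18.8 and 20.6 FPKM. No sample overlapped (-1.61, limma-trend adjusted p = 0.000145). The homeobox gene Cdx1 was at 5.50 and 5.58 FPKM against 16.7 and 18 FPKM (-1.49). The receptor gene Tnfrsf19 fell by 0.86 on the log2 scale, the nuclear effector gene Tcf7 fell by 0.51 and Znrf3, a ligase that removes WNT receptors, fell by 0.41. Ccnd1 (-0.30, limma-trend adjusted p = 0.0959) and the secreted WNT inhibitor Notum (-0.34, limma-trend adjusted p = 0.0756) were not called.

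Promoter windows of 250 bases before the start, from the RefSeq table of GRCm38.p6, are shown for the WNT targets with a TCF/LEF match, because TCF/LEF factors carry beta-catenin to DNA, and for Sox2 itself. RefSeq windows were found for 5 of the 7 lower WNT genes. Capitals mark one of the searched forms on either strand, which are AACAAAG and ATCAAAG, beginning with A, or TACAAAG and TTCAAAG, beginning with T. Sp5 lies on the plus strand (chr2:70474673-70474922), Tnfrsf19 on the minus strand (chr14:61037988-61038237) and Sox2 on the plus strand (chr3:34649745-34649994), and each is written 5′ to 3′ in the direction of its gene.
Sp5: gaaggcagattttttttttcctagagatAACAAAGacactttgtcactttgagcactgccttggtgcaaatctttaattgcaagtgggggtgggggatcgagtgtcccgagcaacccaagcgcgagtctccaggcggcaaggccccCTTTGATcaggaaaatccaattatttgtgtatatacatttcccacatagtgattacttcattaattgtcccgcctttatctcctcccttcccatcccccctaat
Tnfrsf19: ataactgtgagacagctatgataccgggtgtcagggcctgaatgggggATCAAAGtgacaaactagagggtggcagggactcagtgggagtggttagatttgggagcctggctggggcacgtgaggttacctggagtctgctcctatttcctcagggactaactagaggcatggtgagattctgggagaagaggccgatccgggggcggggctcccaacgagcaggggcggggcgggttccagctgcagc
Sox2: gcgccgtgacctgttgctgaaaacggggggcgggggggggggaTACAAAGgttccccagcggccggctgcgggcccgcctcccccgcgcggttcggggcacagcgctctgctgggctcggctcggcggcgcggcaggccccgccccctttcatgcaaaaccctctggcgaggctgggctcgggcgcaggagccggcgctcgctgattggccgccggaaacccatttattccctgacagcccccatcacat
Sp5, with the largest fall of the WNT genes, held 2 matches that begin 222 and 104 bases before the start, the second on the opposite strand, and the matches do not overlap. Tnfrsf19 held 1 in 1 of its 2 windows, at 202 bases, and Sox2 held 1 at 207 bases. The windows of Axin2, Tcf7 and Wls held none. Of all 32851 promoter windows in the table, 14.8% held at least 1 match and 1.43% at least 2. A match describes letters, and binding was not measured here.

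The OCT-SOX composite motif, the joint site of OCT4 and SOX2, was found in 8 of the 32851 windows (0.0244%), and 1 of them was that of Nanog (chr6:122707239-122707488, plus strand, GRCm38.p6), chosen for display after its values were seen. Capitals mark the motif, searched with 1 base left free, which lies on the opposite strand and begins 75 bases before the start.
Nanog: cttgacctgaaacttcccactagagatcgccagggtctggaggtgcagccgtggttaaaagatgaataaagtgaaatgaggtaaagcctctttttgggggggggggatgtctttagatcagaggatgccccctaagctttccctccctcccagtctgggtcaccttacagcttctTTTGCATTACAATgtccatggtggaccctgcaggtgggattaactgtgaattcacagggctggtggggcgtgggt
The tested genes with this motif in a window were Exoc1, a subunit of the exocyst (log2 fold change -0.58, limma-trend adjusted p = 0.0272), Nanog (0.31, limma-trend adjusted p = 0.0855) and Pipox, pipecolic acid oxidase (0.09, limma-trend adjusted p = 0.606). They did not share a direction.

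More NODAL and activin genes fell than rose. Of 13 tested, 8 fell (22% of all genes did) and 2 rose (14.2%), with a median log2 fold change of -0.61. Lefty2, a secreted inhibitor of NODAL that NODAL itself induces, was at 5.24 and 10.1 FPKM in E2-KO and 43.5 and 42.6 FPKM in WT. Lefty1, the related inhibitor, was at 0.781 and 2.19 FPKM against 6.25 and 3.57 FPKM. Both groups were separate for both genes, with log2 fold changes of -2.40 and -1.27, and the call of Lefty1 was lost without E2-KO replicate 1 or WT replicate 1. The receptors Acvr1b (-1.0) and Acvr2b (-0.72) fell. The ligand genes stood elsewhere: Nodal was at 29.9 and 29.9 FPKM against 30.4 and 35.5 FPKM (-0.13, limma-trend adjusted p = 0.377), whereas Inhbb, a subunit of activin B, rose to 13.1 and 9.30 FPKM from 2.22 and 2.17 FPKM (1.92). The nuclear partner Foxh1 rose by 0.83. The count of 8 was 4 without E2-KO replicate 1 or WT replicate 1 and 5 without WT replicate 2.

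In the FGF and ERK list 4 of 15 tested genes rose (14.2% of all genes did) and 2 fell (22%), with a median of 0.25. The ETS factors Etv1, at 15.2 and 12.5 FPKM against 2.21 and 2.34 FPKM, and Etv4 led the rises. Their relative Etv5, at 116 and 101 FPKM against 118 and 127 FPKM, did not pass (-0.18, limma-trend adjusted p = 0.242). The feedback inhibitor Spry4 rose by 1.10, a call lost without E2-KO replicate 1 or either WT sample, and the ERK phosphatase Dusp6 had 0.51 (limma-trend adjusted p = 0.1). The feedback inhibitors Il17rd (-0.53) and Spred1 (-0.41) fell. The 4 rises were 2 without either WT sample, and the 2 falls were 1 or 0 without E2-KO replicate 2 or 1 sample of WT or E1-KO. Of 12 tested BMP and ID genes, 3 rose (14.2% of all genes did) and 2 fell (22%), with a median of -0.06. The 2 falls were 1 without E2-KO replicate 1 or either WT sample. Id1, an inhibitor of bHLH factors induced by BMP, was at 15.2 and 8.25 FPKM against 3.84 and 3.02 FPKM (1.47), and Id4 at 1.17 and 1.19 FPKM against 3.93 and 3.15 FPKM (-1.06). The 2 ID genes moved in opposite directions.

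In the insulin-like growth factor axis, 5 of 11 tested genes fell (22% of all genes did) and 3 rose (14.2%), with a median of -0.41. Besides Igfbp4, the receptor Igf2r, which clears IGF2, was at 14.9 and 14.9 FPKM in E2-KO against 35.3 and 39.4 FPKM (-1.27). In contrast, Igfbp7 was at 13.1 and 11.9 FPKM against 4.91 and 5.82 FPKM (1.08). The 5 falls were 3 without E2-KO replicate 1 or WT replicate 1 and 2 without WT replicate 2, where the 3 rises were 2.

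More matrix and epithelial genes fell than rose. Of 13 tested basement membrane genes, 8 fell (22% of all genes did) and 2 rose (14.2%), with a median of -0.50. Fn1, fibronectin, was at 154 and 161 FPKM in E2-KO and 360.1 and 383 FPKM in WT. Lama1, a laminin chain, was at 13.1 and 10.8 FPKM against 28.1 and 29.4 FPKM. Neither gene overlapped (-1.23 and -1.21), whereas Sparc, a matrix glycoprotein (0.62), and Col4a1, a collagen IV chain (0.58), rose. The 8 falls were 4 without WT replicate 2, and the 2 rises were 1 without E2-KO replicate 1 or either WT sample. Long transcripts were lower in general: the median log2 fold change went from 0.15 in the tenth of genes with the shortest transcripts (median 996.5 bases) to -0.20 in the tenth with the longest (8258 bases). With a correction for transcript length and GC content 6 basement membrane genes fell and 2 rose. Of 20 tested genes of adhesion and the cytoskeleton, 10 fell (22% of all genes did) and 1 rose (14.2%), with a median of -0.45. The keratin gene Krt18 was at 3.05 and 2.82 FPKM against 10.2 and 9.48 FPKM (-1.46), and the membrane-binding Anxa2 at 7.41 and 9.93 FPKM against 22.8 and 21 FPKM (-1.25). Genes of the tight junction protein Cldn4 (-1.19) and the adhesion molecule Epcam (-0.95) fell. The intermediate filament gene Vim rose by 0.55, a call lost without either WT sample or E2-KO replicate 2, and Cdh1, E-cadherin, was at 274 and 322 FPKM against 318 and 343 FPKM (-0.15, limma-trend adjusted p = 0.321).

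Most tested targets of p53 fell. Of 19 tested, 13 fell (22% of all genes did) and none rose (14.2%), with a median log2 fold change of -0.53. Cdkn1a, the p21 inhibitor of cyclin-dependent kinases, was at 42.2 and 53.8 FPKM in E2-KO and 118 and 129.9 FPKM in WT. The groups were far apart (-1.36, standard error 0.153, limma-trend adjusted p = 0.000452). Trp53inp1, a p53 cofactor, was at 35.5 and 37.7 FPKM against 88.7 and 89.5 FPKM (-1.26), and Pmaip1, the NOXA gene of cell death, at 4.03 and 5.93 FPKM against 13.6 and 12.4 FPKM (-1.24). Dcxr, a carbonyl reductase, fell by 1.28 on the log2 scale. Mdm2, the ligase that removes p53, was at 54.4 and 50.7 FPKM against 54.1 and 52.9 FPKM (-0.03, limma-trend adjusted p = 0.85), and the death effector Bax had 0.35 (limma-trend adjusted p = 0.0507). With median-ratio scaling 10 fell and 2 rose. The count of 13 was 8 without E2-KO replicate 1, 6 without WT replicate 1 and 7 without WT replicate 2. In the list of the G1 phase, which shares Cdkn1a, 4 of 19 tested genes rose (14.2% of all genes did) and 4 fell (22%). The median was -0.19. Myc, a growth-promoting factor, was at 9.81 and 5.11 FPKM against 1.46 and 1.37 FPKM (1.75). Ccne1, the cyclin E that starts replication with CDK2, was at 116 and 88.1 FPKM against 31.0 and 30.0 FPKM (1.70, limma-trend adjusted p = 0.000318). Both were higher in each E2-KO sample than in either WT sample. Cdkn2a, an inhibitor locus of the cycle, fell by 0.66 on the log2 scale. The 4 falls were 2 without E2-KO replicate 1 or WT replicate 2 and 1 without WT replicate 1, and the 4 rises were 2 without WT replicate 2.

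More glycolytic and hypoxia-responsive genes fell than rose, with Gapdh, Ldha and Pkm among the members not called. Of 29 tested, 16 fell (22% of all genes did) and 1 rose (14.2%), with a median log2 fold change of -0.44. Ldhb, a subunit of lactate dehydrogenase, was at 42.6 and 50 FPKM in E2-KO and 224 and 227 FPKM in WT (-2.26, limma-trend adjusted p = 4.68e-05). Slc2a3, a glucose transporter, was at 197 and 207 FPKM against 479.5 and 495 FPKM (-1.26). All E2-KO samples were far below WT in both. Gapdh, which carries the pathway's oxidation step, was at 0.06 (limma-trend adjusted p = 0.813), Ldha at 0.11 (0.64 by limma-trend, adjusted) and the pyruvate kinase Pkm at -0.04 (0.857 by limma-trend, adjusted). The mitophagy receptor gene Bnip3 was called lower (-1.11) with E2-KO samples at 10.8 and 26.7 FPKM, and lost the call without E2-KO replicate 1 or either WT sample and in 5 other alternatives, among them quantile normalization, median-ratio scaling and the replicate block (limma-trend adjusted p = 0.0517, 0.0528 and 0.0507). The 1 rise, of the enolase gene Eno3 (0.85), was lost without either WT sample. The count of 16 was 8 without E2-KO replicate 1, 6 without WT replicate 1 and 9 without WT replicate 2. Nuclear genes of oxidative phosphorylation had 5 rises and 2 falls in 34 tested and a median of 0.02. Of all genes 14.2% rose and 22% fell, so the rises were near that share and the falls below it. The 5 rises were 2 without E2-KO replicate 1, WT replicate 1 or either E1-KO sample and 1 without WT replicate 2. The 2 falls were 1 without E2-KO replicate 2, WT replicate 1 or either E1-KO sample, 0 without WT replicate 2 and 4 without either E3-KO sample, and quantile normalization gave 2 rises and 6 falls.

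Among 21 tested genes of the amino acid and unfolded protein responses, 8 fell (22% of all genes did) and 1 rose (14.2%). The median was -0.31. Nupr1, a stress-induced chromatin protein, was at 34.6 and 32.2 FPKM against 73.4 and 71.6 FPKM (-1.10), while Hspa5, the main chaperone of the endoplasmic reticulum, was at 169 and 161 FPKM against 85.5 and 88.9 FPKM (0.91). The 2 genes went opposite ways without overlap of their groups. The 8 falls were 5 without E2-KO replicate 2 or WT replicate 1 and 4 without WT replicate 2. In the oxidative stress list 3 of 16 tested rose (14.2% of all genes did) and 2 fell (22%), with a median of 0.17. Gpx2, a glutathione peroxidase, was at 8.66 and 8.86 FPKM against 34.2 and 33.4 FPKM (-1.83), and Nqo1, a quinone reductase, at 53.2 and 47.7 FPKM against 27.8 and 27.7 FPKM (0.84).

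Many replication-dependent histone genes rose. Of 29 tested, 13 rose (14.2% of all genes did), 16 were not called and none fell (22%), with a median log2 fold change of 0.59. Hist1h2ad, an H2A gene, was at 151 and 74.6 FPKM in E2-KO and 22.6 and 22.6 FPKM in WT. Hist1h4c, an H4 gene, was at 384 and 354 FPKM against 109 and 127 FPKM. The E2-KO samples of Hist1h2ad were unequal, yet all samples of both genes stood above WT (2.18 and 1.64). These transcripts are short and have near-identical copies, between which reads may be split. With the correction for transcript length and GC content 10 rose and 2 fell, with a median of 0.33, and the count of 13 was 6 without WT replicate 1 and 7 without WT replicate 2. The summed level of the 29 genes was 14250 and 11480 FPKM in E2-KO against 8864 and 8925 FPKM in WT.

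Of 20 tested polycomb genes, 3 rose and 3 fell (median 0.04), where 14.2% of all genes rose and 22% fell. The rises were near that share and the falls below it. Suz12, a core subunit of PRC2, was at 49.2 and 43.7 FPKM against 77.1 and 85.0 FPKM (-0.79). The 3 rises were 1 without either WT sample and 5 without either E3-KO sample. Of 19 tested imprinted genes, 7 fell (22% of all genes did) and 4 rose (14.2%). The median was -0.08, which changed sign with quantile normalization, to 0.03. The paternally expressed Mest was at 92.5 and 68.5 FPKM against 31.8 and 31.9 FPKM (1.30) and Dlk1 at 4.06 and 7.24 FPKM against 1.09 and 0.882 FPKM (1.70), while Sgce, also paternally expressed, fell by 1.42 on the log2 scale. The 4 rises were 2 without WT replicate 1. In the germline genes that DNA methylation silences, 4 of 21 tested fell and none rose (median -0.13). With 22% of all genes lower and 14.2% higher, these falls were near the share of all genes. Tdrd12, a factor of the piRNA pathway, was at 2.91 and 2.71 FPKM against 16.9 and 16.4 FPKM (-2.21, limma-trend adjusted p = 4.35e-05). The 4 falls were 1 without either WT sample and 2 without E2-KO replicate 2. Ribosomal protein genes had a median of -0.05 with 12 of 69 lower and 4 higher, both below the shares of all genes (22% and 14.2%). After quantile normalization 23 were lower. The 12 were 4 without WT replicate 2, 6 without WT replicate 1 and 7 without E2-KO replicate 2, and the 4 were 8 without E2-KO replicate 2, 2 without E2-KO replicate 1 and 0 without either WT sample. Many of these genes have pseudogene copies, so single values such as that of Rps15a (-1.14) are uncertain.

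**Figure D3:**
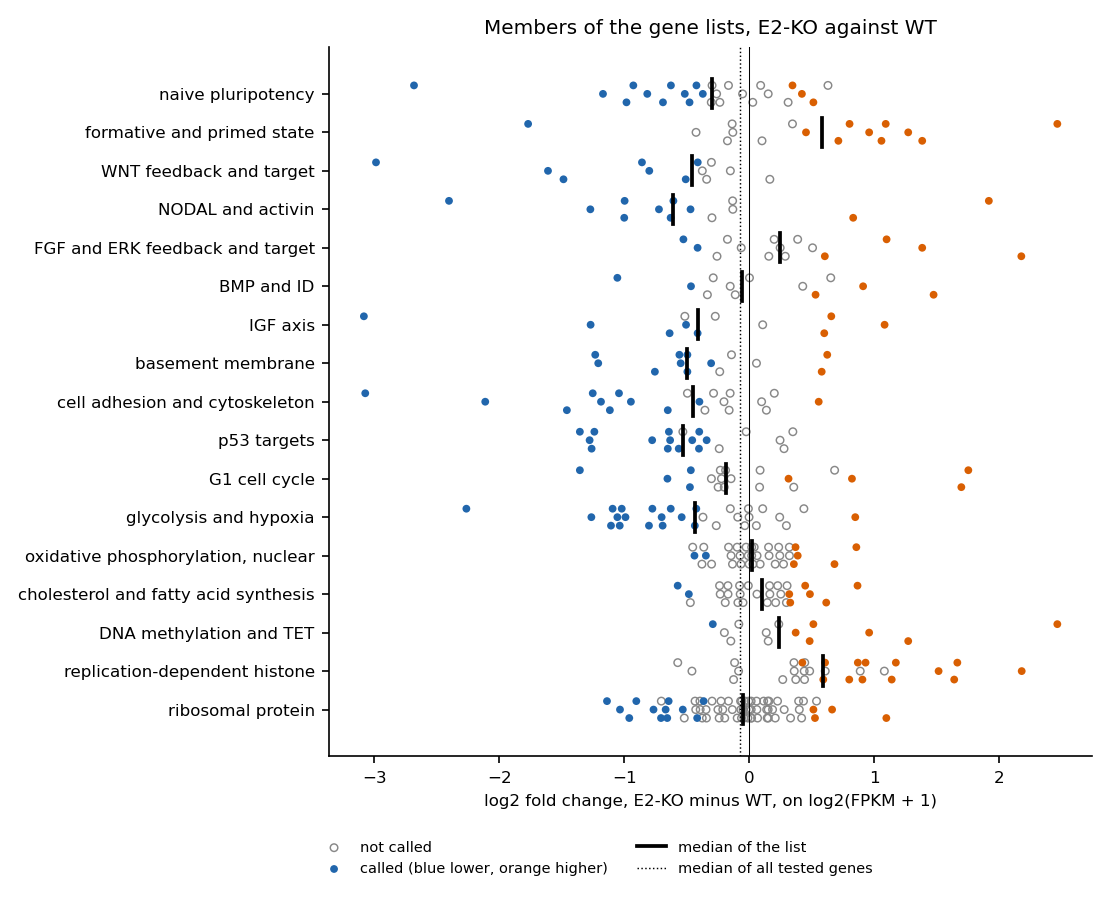
Each point is a tested member of a gene list, placed by its log2 fold change of E2-KO against WT. Filled points are called (blue lower, orange higher), open points are not, the black bar is the median of the list and the dotted line is the median of all tested genes at -0.08. The bars of the WNT, NODAL, p53 and glycolysis lists lie left of the dotted line, and those of the formative and histone lists lie right of it.

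Several defining markers of other cell types were near 0, while the summed levels of several of their lists were not. Counts in these short lists are to be read against the 14.2% of genes that rose and the 22% that fell. The trophectoderm genes Cdx2, Elf5 and Hand1 had means of 0.0506, 0.0106 and 0.0203 FPKM in E2-KO, and the summed level of the 17 listed genes was 72.1 and 80.1 FPKM in E2-KO against 98.2 and 106.8 FPKM in WT. Of 10 tested, 4 fell (22% of all genes did), among them Krt18 and Gata2 (-1.06), and none rose (14.2%). The primitive endoderm markers Sox17, Pdgfra and Foxa2 had means of 0.312, 0.168 and 0.101 FPKM in E2-KO. The summed level of that list, mostly Sparc, was 149.8 and 164.5 FPKM in E2-KO against 123.7 and 129.9 FPKM in WT, and 1 of 5 tested genes rose and 2 fell. Among mesoderm and endoderm genes, T had 0.0979 FPKM in E2-KO against 1.90 FPKM in WT, Lhx1 and Cer1 were listed at 0 in all 4 samples, and Gsc fell by 1.30 on the log2 scale. The neural gene Neurog2 was listed at 0 in both E2-KO samples, although 3 of 6 tested genes rose, among them Stmn2 (0.88) and Ncam1 (0.70), and 1 fell, a call lost without E2-KO replicate 1 or WT replicate 1. The 3 neural rises were 2 with the replicate block or with the 2 groups fitted alone. The summed neural list, mostly Stmn2, was 147.0 and 119.0 FPKM against 73.3 and 77.3 FPKM. Col3a1 and Prrx1, genes of fibroblasts, were listed at 0 in all 4 samples, and 2 of 4 tested fibroblast genes rose, calls lost without E2-KO replicate 2 or either WT sample. None of the 14 listed genes of the two-cell-like state passed the filter on low values. The part of these cells in the changes above was not tested.

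E2-KO was then set against the other knockouts directly. The difference itself does not use the WT values, while the spread was estimated over all 8 samples. In 94 genes E2-KO differed from E1-KO (0.834%), 55 higher (0.488%) and 39 lower (0.346%), where 2091 genes had an unadjusted p under 0.05. From E3-KO it differed in 1754 genes (15.6%), 1136 higher (10.1%) and 618 lower (5.48%). Of the 1754 genes, 322 lay on chromosome 6, of 536 tested there, and this chromosome had a median log2 fold change against WT of -0.62 in E3-KO, -0.07 in E2-KO and -0.05 in E1-KO. The split for E3-KO was 838 higher and 848 lower after quantile normalization, 818 and 879 with median-ratio scaling and 709 and 899 without the 50 highest genes. The count for E1-KO was small and not stable: it was 2 without E2-KO replicate 1, 58 without E2-KO replicate 2, 28 without either WT sample, 6 and 8 without E1-KO replicate 1 and 2, and 261 and 251 without E3-KO replicate 1 and 2. The count for E3-KO was 975 without E2-KO replicate 1 and 1043 without E3-KO replicate 2.

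Genes apart in E2-KO, meaning that they differed from WT, E1-KO and E3-KO in the same direction, numbered 4, all lower as deposited. None is placed on chromosome 6. They were Krt19, Farp1, Lcp1 and the unplaced identifier ENSMUSG00000079102. These genes were picked by their differences in these same data, so their low place in E2-KO follows from the rule. Krt19, a keratin, was at 1.08 and 2.55 FPKM in E2-KO, 10.7 and 10.8 FPKM in WT, 10.3 and 7.15 FPKM in E1-KO and 10.6 and 7.96 FPKM in E3-KO. The E2-KO samples were the 2 lowest of the 8. The log2 differences were -2.11 from WT, -1.82 from E1-KO and -1.91 from E3-KO (limma-trend adjusted p = 0.000593, 0.0211 and 0.00223). Farp1, a FERM-domain protein of the membrane, was at 3.26 and 3.37 FPKM in E2-KO, 9.45 and 9.78 FPKM in WT, 10.1 and 7.39 FPKM in E1-KO and 7.13 and 7.48 FPKM in E3-KO. Its E2-KO values were again the lowest, with log2 differences in the same order of -1.30, -1.16 and -0.95 (limma-trend adjusted p = 0.000458, 0.0161 and 0.00432). Lcp1, the actin-bundling L-plastin, was at 2.00 and 2.2 FPKM in E2-KO, 14.6 and 14.5 FPKM in WT, 5.42 and 7.76 FPKM in E1-KO and 4.18 and 3.49 FPKM in E3-KO. Lcp1 was lower than WT in the other knockouts as well, and lowest in E2-KO (-1.28 from E1-KO and -0.64 from E3-KO). ENSMUSG00000079102 was at 7.92 and 9.47 FPKM in E2-KO, 14.6 and 14.7 FPKM in WT, 19.8 and 23.8 FPKM in E1-KO and 38.9 and 22.7 FPKM in E3-KO. Its log2 difference from WT was -0.70 in E2-KO (limma-trend adjusted p = 0.0329) and 0.97 in E3-KO (limma-trend adjusted p = 0.00635), so E3-KO stood above WT. Farp1 stayed apart in 16 of 20 alternatives, Krt19 in 12, Lcp1 in 11 and ENSMUSG00000079102 in 9. The number of genes apart was 1 without E2-KO replicate 1, either WT sample or either E1-KO sample, 13 without E2-KO replicate 2, and 44 and 12 without E3-KO replicate 1 and 2. Genes apart on the higher side then appeared, with 7 of the 13, 31 of the 44 and 5 of the 12, and 2 of 7 were higher with median-ratio scaling or without the trend and 1 of 8 with the correction for length and GC content.

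**Figure D4:**
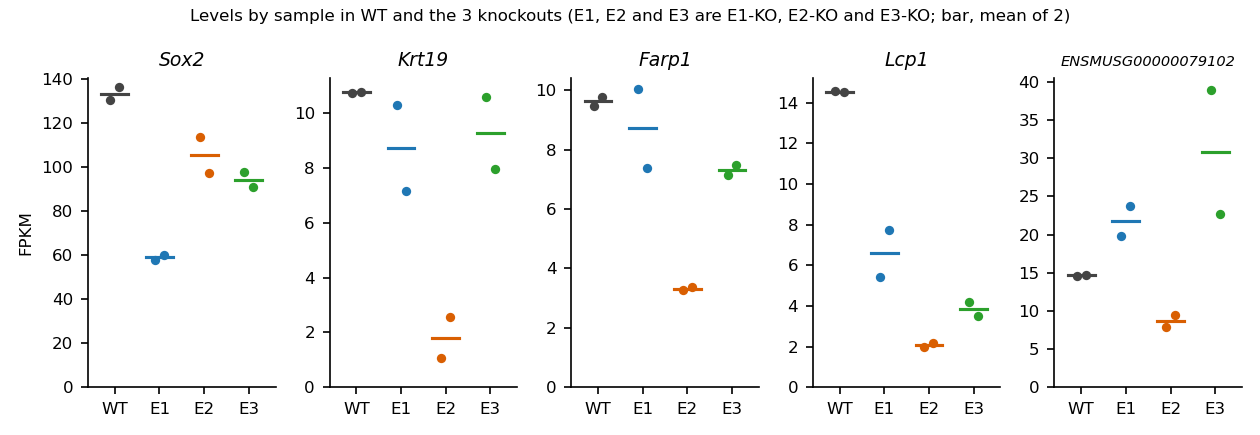
Levels in FPKM are shown for Sox2 and the 4 genes apart in E2-KO, with points for samples, bars for the means of 2 samples and axes that start at 0. Sox2 in E2-KO lies between WT and E1-KO, and the other 4 genes are lowest in both E2-KO samples. Those 4 genes were picked for being lower in E2-KO than in each other group.

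Between E2-KO and E1-KO the largest differences reported here, among named genes averaging 5 FPKM or more over the 8 samples, a rule chosen after the values were seen, were of Krt19, Vill, Lcp1 and Ggt1 on the lower side and of Ubb, Serpina3n, Epop, Pramel6 and Aspa on the higher side. Vill, a villin-like actin binder, was at 9.07 and 10.7 FPKM in E2-KO and 30.2 and 23.4 FPKM in E1-KO, both above the 2.46 and 3.10 FPKM of WT. Aspa, an enzyme that splits N-acetylaspartate, was at 24.9 and 28.0 FPKM against 5.24 and 9.29 FPKM, with WT at 22.9 and 24.4 FPKM. In Aspa, E2-KO lay nearer to WT and E1-KO stood apart. Ubb, a polyubiquitin gene, was the reverse, at 693 and 673 FPKM in E2-KO against 237 and 272 FPKM in E1-KO and 253 and 226 FPKM in WT. E3-KO was at 693 and 549.8 FPKM of Ubb and did not pass against E2-KO (0.15, limma-trend adjusted p = 0.506). Of the 94 genes, 42 were called against WT in E1-KO and not in E2-KO, 26 in E2-KO and not in E1-KO, and 26 in both.

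The 3 knockouts were compared with the same WT samples, so their list counts are not independent. In E1-KO 38% of all genes differed from WT (15% higher, 23% lower) and in E3-KO 44.7% (13.9% higher, 30.8% lower). Several lists above moved in these lines as well. Of the WNT genes 8 fell in E1-KO and 9 in E3-KO, and none rose. Of the naive genes 15 fell and 2 rose in E1-KO, and 12 fell and 1 rose in E3-KO. Of the formative genes 8 rose and 1 fell in E1-KO, and 5 rose and 3 fell in E3-KO. Of the NODAL genes 6 fell and 2 rose in E1-KO, and 5 fell and 2 rose in E3-KO. Of the 19 tested p53 targets, 14 fell in E1-KO (23% of all genes fell there) and 13 in E2-KO, while in E3-KO 3 fell (30.8% of all genes) and 4 rose (13.9%). Compared directly, 11 of the 19 were lower in E2-KO than in E3-KO and none was higher, against 5.48% of all genes lower. Pmaip1 was at 14.3 and 12.7 FPKM in E3-KO, and the difference of E2-KO from it was -1.30 on the log2 scale (limma-trend adjusted p = 0.00203). Mdm2, at 85.9 and 89.7 FPKM in E3-KO, differed by -0.73 (limma-trend adjusted p = 0.00199). None of the 19 differed between E2-KO and E1-KO. Without E2-KO replicate 1 the count of 11 was 4, without E2-KO replicate 2 it was 7, without either WT sample or E3-KO replicate 1 it was 6, and without either E1-KO sample it was 7.

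Genes of cholesterol and fatty acid synthesis showed the opposite order. Of 28 tested, 6 rose (14.2% of all genes did) and 2 fell (22%) in E2-KO against WT, with a median of 0.10. In E1-KO 12 rose and 2 fell (15% of all genes rose there). In E3-KO 15 fell (30.8% of all genes did) and none rose. Idi1, an isomerase of the mevalonate pathway, was at 10.7 and 10.6 FPKM in E2-KO, 5.19 and 5.60 FPKM in WT, 12.4 and 12.4 FPKM in E1-KO and 5.08 and 5.25 FPKM in E3-KO. Fdps, which makes farnesyl diphosphate, was at 75.4 and 81.7 FPKM in E2-KO, 49.2 and 52.6 FPKM in WT, 103 and 96.0 FPKM in E1-KO and 56.6 and 49.8 FPKM in E3-KO. For both, E2-KO was above WT and E3-KO. Directly, 13 of the 28 were higher in E2-KO than in E3-KO and none lower, against 10.1% of all genes higher, and none of the 13 lies on chromosome 6. Omitting single samples left 10 to 13. The 6 rises against WT were 2 without WT replicate 1, 3 without WT replicate 2 or E2-KO replicate 2, and 4 without either E1-KO sample. Of the glycolytic genes, 8 of 29 differed between E2-KO and E3-KO, 7 of them higher in E2-KO, but 5 of the 8 lie on chromosome 6, such as Ldhb (at 17.8 and 23.6 FPKM in E3-KO) and Slc2a3 (at 90.8 and 94.3 FPKM). The 7 were 4 without either WT sample or E3-KO replicate 2.

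**Figure D5:**
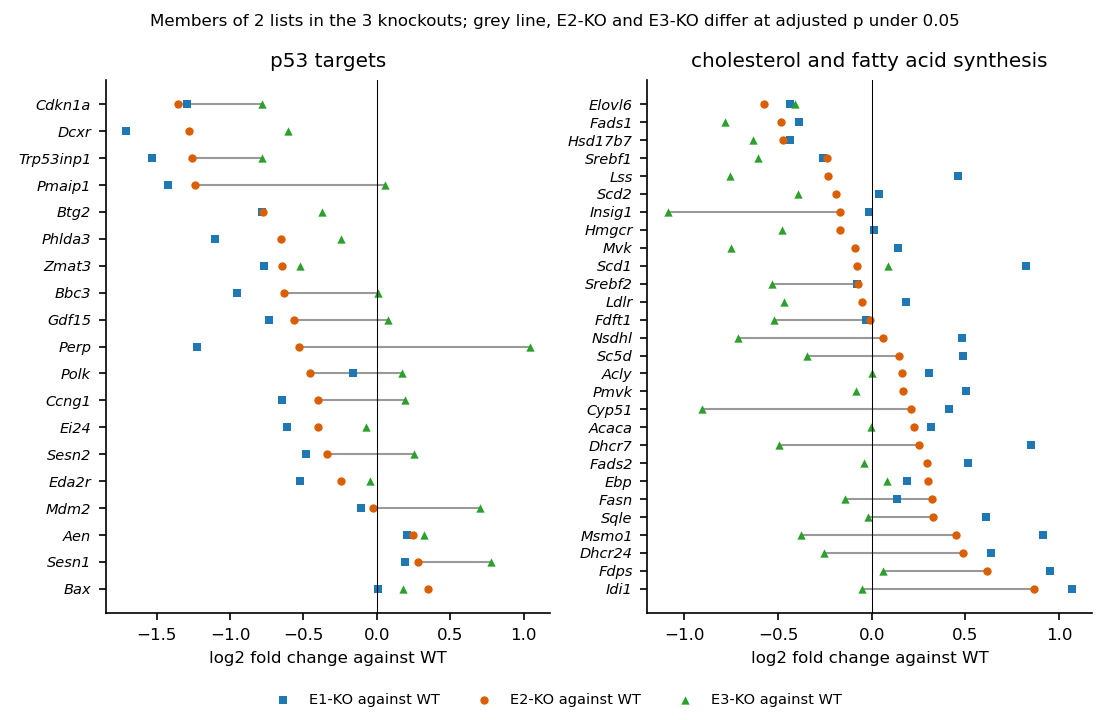
Each row is a gene and each symbol its log2 fold change against the shared WT samples, squares for E1-KO, circles for E2-KO and triangles for E3-KO. Grey lines join E2-KO and E3-KO where they differed directly by limma-trend, in 11 of 19 p53 targets, with E2-KO at the left, and in 13 of 28 lipid genes, with E2-KO at the right.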

How the data were processed

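RNA-seq libraries of 4 groups with 2 samples each were analysed. The authors deposited 1 table per sample with 18774 rows of gene levels, whose unit is not stated and was read as FPKM from the values and from Cufflinks 2.2.1, which the submitters' processing notes name with Trimmomatic 0.36, TopHat2 2.0.12 and the mm9 build. Per the labels' protocols, libraries were made from total RNA and read in pairs of 150 bases. Absolute depth cannot be had from FPKM.

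For 660 identifiers with more than 1 row, 1 row was kept by its annotated position, and 81 identifiers for which no row or several rows fitted were left out. Genes averaging 1 FPKM or more were tested by limma-trend (limma 3.58.1, R 4.3.3) on log2(FPKM + 1), in 1 fit of all 8 samples, with Benjamini-Hochberg adjustment over 11274 genes and calls at 0.05. On simulated data of the comparison with WT, on 11274 genes, 71.5% of 200 genes changed by 0.5 (log2) were recovered, and 100% at 1 and at 2. Between 0 and 16 unchanged genes were called. The changed genes were drawn only from those averaging about 5 FPKM or more, so recovery of lower genes was not tested. Noise was normal with a smoothed spread, and 200 genes are far fewer than the 36.1% called in the data, so these figures do not carry over to the data directly.

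The members and gene lists were chosen with earlier results of these data known. Named were Sox2 and the 10 largest changes in each direction. These came from called genes averaging 5 FPKM or more over the E2-KO and WT samples whose groups do not overlap. Also named were the largest called members of each list (up to 4 by absolute change), predicted genes (2 per direction) and genes apart in E2-KO. The other genes in the text were chosen after their values were seen. The p-values measure the spread between biological duplicates, whose origin the labels do not describe further. Promoters are RefSeq windows of GRCm38.p6, matched by symbol; that build differs from mm9, so no coordinates were set beside the files' values. Alternatives were other pseudocounts, filters, scalings, spread models, treatments of repeated rows, a replicate block, the 2 groups alone, single samples left out, and, chosen after seeing the data, a correction for transcript length and GC content. Some genes that met the rules for naming are not reported here.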

Additional observations from a re-analysis of the deposited data

Results flagged for a closer look

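Some changes in E2-KO differed from those of another knockout by a direct test between the 2 lines (limma-trend, adjusted over all genes). Each value is the log2 change against WT in E2-KO minus that in the other line. Sox2 differed from E1-KO by 0.82 (limma-trend adjusted p = 0.0161). Of the genes with the largest falls, Dppa3 differed from E3-KO by -1.73, Sdc4 by -1.61, Fxyd2 by -1.21 and Aim2 by -1.06, so each was lower in E2-KO. Of the genes with the largest rises, Cd37 differed from E3-KO by 0.75, Myo1f by 1.04, Prrt3 by 1.14, Eras by 1.06 and Myl9 by 1.95. None of the genes with the largest falls or rises differed from E1-KO in this test. Dppa3 and Prrt3 lie on chromosome 6, where genes in E3-KO had a median of -0.62 against WT. Prrt3 was lower in E3-KO than in E2-KO, in the direction of that median, whereas Dppa3 was higher in E3-KO than in E2-KO. Of the predicted and unnamed genes, D230025D16Rik differed from E3-KO by -0.50, ENSMUSG00000074562 by -1.78 and Gm10800 by -1.95.

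The 4 genes apart in E2-KO differed from both lines because the rule that picked them asked for it. Krt19 differed by -1.82 from E1-KO and -1.91 from E3-KO, and Farp1 by -1.16 and -0.95. Lcp1 differed by -1.28 from E1-KO and -0.64 from E3-KO. ENSMUSG00000079102 differed by -1.23 and -1.67.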

How the results depend on the processing

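Of 123 named genes other than Sox2 under up to 20 alternatives, 91 kept their direction and call in every one, and 2324 of 2431 values kept both. These genes were named because they were called in these same data, mostly with large changes. Sox2 is given separately below. The rise of Dnajc19 turned to -0.31 (limma-trend adjusted p = 0.216) with the rows of its identifier summed. Leaving out 1 sample gave 1871 to 4453 genes that differ between E2-KO and WT, 2 to 261 between E2-KO and E1-KO, 975 to 1550 between E2-KO and E3-KO, and 1 to 44 apart from all 3 groups. The lowest count for WT came without WT replicate 2, and 2188 without WT replicate 1. With E1-KO, the 94 genes became 1 with all genes above 0 tested, 58 at a mean of at least 5 FPKM, 31 with the replicate block and 1 with the 2 groups fitted alone, while other settings gave 75 to 115. With E3-KO, the 2 groups alone gave 671. The 4 genes apart became 8 with a pseudocount of 0.1, 0 with all genes above 0, 7 with median-ratio scaling or without the trend, 2 with the replicate block, 0 with groups fitted alone and 8 with the correction for length and GC content. The cause was not tested. Sox2 kept its direction throughout, from -0.23 to -0.45 when 1 sample was left out. The trend, the block, the filters and the other knockouts do not enter a fold change against WT. Those settings could not change a direction and left Sox2 at -0.34. Sox2 missed the threshold at -0.26 with median-ratio scaling. At -0.34 it missed the threshold by limma without the trend (adjusted p = 0.052) and by limma-trend with the 2 groups alone (0.0567).

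The deviations of same-numbered samples from their group means correlated between -0.0423 and 0.0895 over all genes. The labels do not say whether same-numbered samples were handled together, and a batch that touches some genes was not tested. With the replicate block 3855 genes differed from WT and 1526 from E3-KO, and the adjusted p of Sox2 was 0.0434 by limma-trend. Over all tested lists, 19 of 30 medians kept their sign in every setting. Those that changed it were the BMP, FGF, G1, SOX, cholesterol, imprinted, mesoderm, oxidative phosphorylation, oxidative stress, polycomb and ribosomal lists. With 2 samples per group, the spread rests on 4 residual degrees of freedom, and an unknown depth limits what can be said of low genes.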

Other observations

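In serine and one-carbon metabolism, which feeds nucleotide synthesis and methylation, 5 of 18 tested genes fell in E2-KO and 2 rose against WT (median -0.23). Of all genes 22% fell and 14.2% rose. The glycine cleavage gene Gldc was at 17.9 and 16.9 FPKM in E2-KO and 33.1 and 34.3 FPKM in WT, with a log2 fold change of -0.91. Gcsh, a partner subunit of the same complex, was at 90.8 and 74.2 FPKM against 42.7 and 46.6 FPKM, higher by 0.87 on that scale. The thymidylate synthase gene Tyms was at 59.6 and 49.3 FPKM against 31.1 and 30.0 FPKM (0.81). The 5 falls were 3 without WT replicate 1, 1 without WT replicate 2, and 9 with quantile normalization or with scaling on all but the 50 highest genes. Of the 5 tested genes of the SOX family, Sox2 and Sox13 fell (22% of all genes did), Sox13 by 0.73 on the log2 scale. None of the 5 rose (14.2%). With all genes above 0 tested, 3 of 17 members rose and 2 fell, with a median of 0.008. The 2 falls were 1 without either E2-KO sample, WT replicate 1 or either E1-KO sample, 0 without WT replicate 2, 3 without either E3-KO sample, 1 with median-ratio scaling or without the trend, and 3 with scaling on all but the 50 highest genes or with the correction for length and GC content. Sox13 lost its call without E2-KO replicate 1 or WT replicate 2 (limma-trend adjusted p = 0.0897 and 0.131).

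In the list of cell adhesion and cytoskeleton, 7 of 20 tested genes were lower in E2-KO than in E3-KO (5.48% of all genes were) and 1 was higher (10.1%). The 7 were 12 with the correction for length and GC content. Anxa2 was at 7.41 and 9.93 FPKM in E2-KO and 26.7 and 23.7 FPKM in E3-KO, and Krt18 at 3.05 and 2.82 FPKM against 12.3 and 7.14 FPKM. The differences were -1.45 and -1.41 on the log2 scale (limma-trend adjusted p = 0.00101 and 0.00359). Etv4 was at 42.2 and 38.8 FPKM in E3-KO, close to WT, and the E2-KO samples stood above them, by 1.46 (limma-trend adjusted p = 0.000479). Igfbp7 was at 3.49 and 3.37 FPKM in E3-KO, which E2-KO exceeded by 1.60 (limma-trend adjusted p = 0.000796). Epop, a protein bound to polycomb and elongin complexes, was at 151 and 155 FPKM in E2-KO, 49.7 and 53.7 FPKM in E1-KO, 145 and 68.5 FPKM in E3-KO and 60.0 and 67.8 FPKM in WT, and did not pass between E2-KO and E3-KO (limma-trend adjusted p = 0.153). Serpina3n, a protease inhibitor, was at 3.9 and 5.80 FPKM in E2-KO and 34.9 and 34.8 FPKM in E3-KO.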
